A study of Drosophila melanogaster with 4 samples.

Results

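The H3K4me2-enriched regions of the Drosophila melanogaster X chromosome were described from the distal tip to the limit of the pericentric sequence, that is every region of the authors' combined list on X that ended at or before position 20422827. This leaves out the 2 Mb next to the centromere. The choice used position alone and gave 898 of the 5383 regions of the combined list (16.7%). The same limits held 853 of 5049 regions in the list of replicate 1 (16.9%) and 848 of 5063 in that of replicate 2 (16.7%). On either side of the limit, the last regions inside were X 20388376 to 20389379 (score 0.45, called in replicate 1 only) and X 20393818 to 20396761 (score 2.23, called in both). The first outside were X 20564579 to 20568263 (score 0.72) and X 20657816 to 20659507 (score 0.37).

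The samples were whole Oregon-R embryos of wild-type genotype, collected at 14 to 16 h of development, and comprised 2 ChIP libraries made with an H3K4me2 antibody (Abcam) and 2 libraries of input DNA. Each ChIP library has an input library of the same replicate number, which has no list here. Whether the inputs entered the authors' calls is not stated in the labels or headers used here. All groups share strain, genotype and stage. The embryos hold all tissues at once, and the labels give neither their sex nor whether the replicates came from separate collections, so the spread between replicates may be technical. The sources used here do not give the read depth. The lists are on FlyBase release 5, no release 5 genome or gene annotation was used, and regions are therefore named by position, without genes, exons, UTRs or sequence.

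Dimethylation of lysine 4 of histone H3 is laid down by the Set1 and Trithorax families of methyltransferases. It marks promoters and enhancers of active genes and of genes held ready for activation, and it can extend from a promoter into the gene body and nearby enhancers. The X of flies is single in males, where the MSL complex binds active X-linked genes and raises their transcription (dosage compensation). Its gene-rich stretches alternate with long gene-poor ones, as on the autosomal arms.

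H3K4me2 regions were found along the whole of X, and most of them recurred between replicates. They covered 3.37 Mb of X in replicate 1 and 3.21 Mb in replicate 2, or 16.5% and 15.7% of the 20.4 Mb considered (mean 16.1% ± 0.57 SD, n = 2). There were 41.8 and 41.5 regions per Mb. Median widths were 3258 bp (replicate 1) and 3240 bp (replicate 2), and the median gap to the next region was 6989.5 bp and 7234 bp. The combined list had 44.0 regions per Mb and covered 17.6%, the authors' value for the replicate set.

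Of the 898 combined regions on X, 795 overlapped a region of both replicates (88.5%, Wilson 95% interval 86.3 to 90.5, counting error only), where the share over all sequences was 88.5%. Those 795 held 95.6% of the covered bases of the combined list on X and had a median score of 1.85. Support came from replicate 1 only for 39 regions (median score 0.41) and from replicate 2 only for 17 (median score 0.43). Another 47 overlapped neither replicate (5.23%, interval 3.96 to 6.89), against 5.44% over all sequences. Their median width was 1145 bp and their median score 0.43. The narrowest X region was 1001 bp wide in the combined list but 1312 bp in replicate 1 and 1316 bp in replicate 2. The combined list thus holds narrower regions than either replicate list, which limits these shares as measures of recurrence. Among the 795, 748 were a single region in each replicate, 25 were divided in replicate 2 only, 15 in replicate 1 only and 7 in both.

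The strongest region on X without support in either replicate was X 6328449 to 6329479, only 1031 bp wide with a score of 1.73. It stood 60578 bp and 86862 bp away from its neighbours. The next were X 721606 to 722683 (score 1.19), X 14898345 to 14899345 (0.94), X 16460200 to 16461514 (0.82) and X 13160884 to 13161984 (0.78). These 5 were 1001 to 1315 bp wide. All but X 16460200 to 16461514 were narrower than any X region of the replicate lists (at least 1312 bp and 1316 bp). How each was scored in a single replicate is not known.

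Between the replicate lists, 809 of the 853 regions of replicate 1 had a partner in replicate 2 (94.8%, interval 93.1 to 96.1), where the share over all sequences was 95.8%. In the other direction 828 of 848 regions were shared (97.6%, interval 96.4 to 98.5), against 97.3%. The lists had 3.11 Mb of X in common, a Jaccard index of bases of 0.90. Regions matched one to one numbered 761. Their scores had a Spearman rho of 0.98 and their widths one of 0.97, both across regions of the same 2 libraries. Starts lay a median of 69 bp apart and ends 82 bp, and both ends were within 250 bp in 566 pairs (74.4%).

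Scores ran higher in replicate 1 for 699 of the 761 pairs (91.9%), close to the 90.8% over all sequences. The median difference was 0.29 (SD over regions 0.19). It was smaller for weak regions than for strong ones. In the lowest quartile of mean score the median difference was 0.08 (n = 191), and from the second to the top quartile it was 0.24, 0.33 and 0.36 (n = 190 each). Replicate 1 regions were also the wider of the pair in 574 cases, by a median of 109 bp over all pairs. For width no share over all sequences is given here, so this count is not read as particular to X. Because the authors' scale is unknown, replicate values are given side by side below rather than as a single level.

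**Figure D1:**
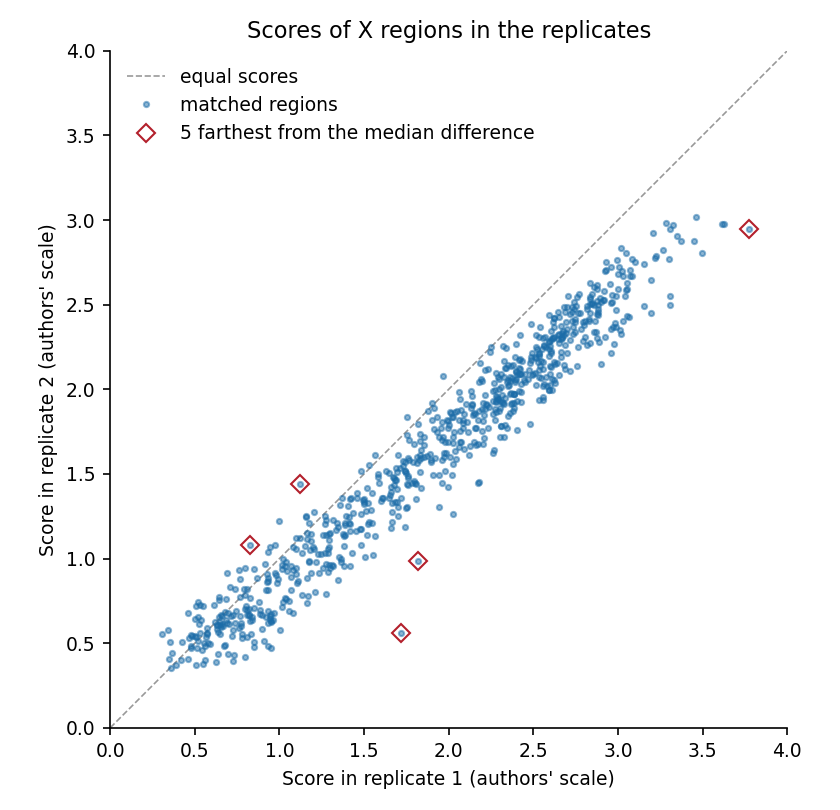
Score of each of the 761 one-to-one matched X regions in replicate 1 (horizontal) and replicate 2 (vertical), on the authors' scale, with the line of equal scores dashed. Diamonds mark the 5 regions whose difference is farthest from the median of 0.29; most points lie below the line and the distance grows with the score.

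A few loci stood apart from this trend. The region X 13071314 to 13073464 scored 1.72 in replicate 1, while its partner, X 13071596 to 13073251, scored 0.56 in replicate 2. At the distal tip of the chromosome, the region X 11199 to 13344 scored 1.82 in replicate 1 and its partner 0.99 in replicate 2. The opposite order was seen at X 15190962 to 15195091, with 1.12 in replicate 1 and 1.44 in replicate 2, and at X 20115184 to 20118283, with 0.82 and 1.08. The fifth was X 20261563 to 20267997, which is the highest score of replicate 1 and of the combined list, with 3.78 in replicate 1 and 2.95 in replicate 2.

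Regions without a partner were weak and narrow, and those of replicate 1 were unevenly placed along X. The 44 such regions of replicate 1 had a median score of 0.59 and a median width of 1527 bp, against 2.03 and 3360 bp for shared ones. The 20 of replicate 2 had 0.58 and 1668.5 bp, against 1.75 and 3279 bp. In the proximal bins 14 to 20 (positions 13000001 to 20000000), 28 of 323 replicate 1 regions lacked a partner (8.67%) and 5 of 309 replicate 2 regions did (1.62%). In bins 1 to 13 the numbers were 15 of 516 (2.91%) and 14 of 524 (2.67%). Covered share moved with this, with replicate 1 above replicate 2 by 1.15 percentage points in bins 14 to 20 and by 0.64 in bins 1 to 13. The median score difference of matched regions was nearly equal in both stretches, 0.29 (SD 0.20, n = 275) and 0.28 (SD 0.19, n = 474). These stretches were chosen after the values were seen.

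Of the 5 strongest unshared regions of replicate 1, 4 lay within the last full megabase. The strongest was X 10500417 to 10502190 (score 1.42), which was 4049 bp from the nearest replicate 2 region. The others were X 19755323 to 19756938 (1.01), X 19921779 to 19923102 (1.01), X 19437423 to 19439144 (0.90) and X 19157930 to 19159307 (0.82). The distance to the nearest replicate 2 region ranged over these 4 from 123 bp to 64737 bp, so some adjoin a region called in both. The strongest unshared regions of replicate 2 were X 16185874 to 16187391 (score 0.82) and X 16614445 to 16616003 (0.74). They were followed by X 9588076 to 9589518 (0.69), X 11671787 to 11673387 (0.67) and X 1103900 to 1106027 (0.66).

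H3K4me2 was spread unevenly along X, in a pattern shared by the replicates. In 20 bins of 1 Mb counted from the distal end, covered share ranged from 8.70% to 24.6% in replicate 1 and from 8.68% to 23.4% in replicate 2. The largest difference between replicates in any bin was 1.69 percentage points, far less than the range over bins. The order of the bins was nearly the same in both, with a Spearman rho of 0.997 for covered share and 0.95 for the number of regions (n = 20 bins of the same 2 libraries).

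The densest bin was 16 (positions 15000001 to 16000000), with 24.6% covered in replicate 1 and 23.4% in replicate 2 and with 57 regions in each list. Bin 12 (11000001 to 12000000) followed with 22.9% and 22.0%, and bin 2 (1000001 to 2000000) with 22.5% and 21.5%. The sparsest was bin 13 (12000001 to 13000000), next to one of the densest, with 8.70% and 8.68% covered by 21 and 24 regions. Bin 15 (14000001 to 15000000), next to the densest, had 10.1% and 9.64%, and bin 5 (4000001 to 5000000) had 10.4% and 10.1%. Covered share therefore changed by more than 13 percentage points between neighbouring megabases at 2 places, between bins 12 and 13 and between bins 15 and 16, in both replicates.

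**Figure D2:**
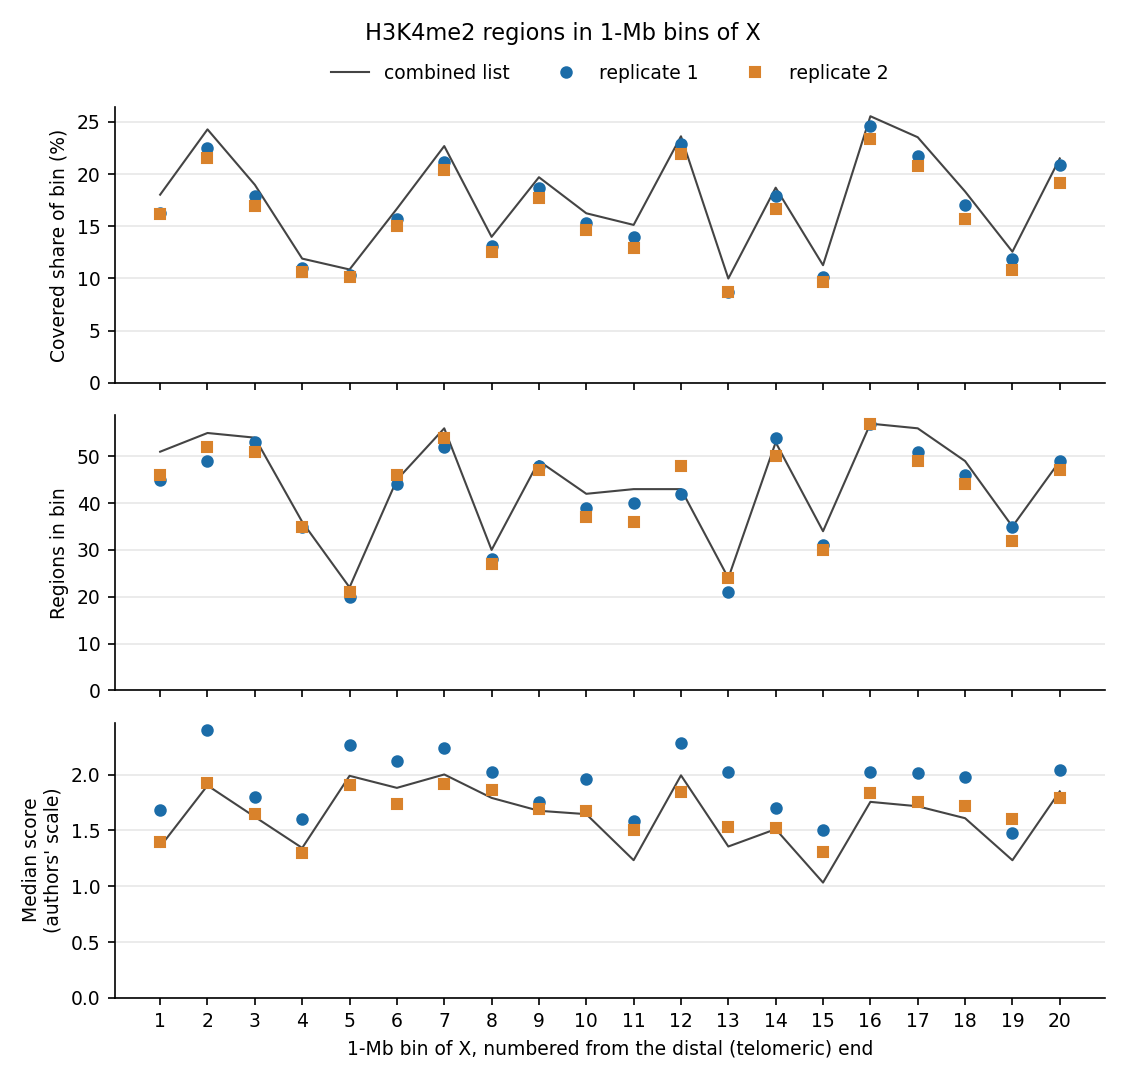
Covered share (%), number of regions and median score (authors' scale) in 20 bins of 1 Mb of X, numbered from the distal end, for replicate 1 (circles), replicate 2 (squares) and the combined list (line). Bins 2, 12 and 16 are the most covered and bins 5, 13 and 15 the least, and the replicates lie close together in covered share at each.

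Sparse bins differed in kind. Bin 5 held the fewest regions, 20 in replicate 1 and 21 in replicate 2, but they were wide and strong, with median widths of 4305.5 bp and 4185 bp and median scores of 2.27 and 1.91. Bin 8 was similar in width, with 28 and 27 regions of median width 4399.5 bp and 4249 bp. Bin 4 (3000001 to 4000000) had 35 regions in each replicate, among the narrowest, with medians of 2880 bp and 2687 bp, and held 0 of the top decile of scores in all 3 lists. Bin 15 had the second-lowest median score in replicate 1 (1.50) and in replicate 2 (1.30), although 2 of the 10 highest scores of X lay in it. Over the 20 bins, number of regions and median width were nearly unrelated, with a rho of -0.099 (replicate 1) and -0.021 (replicate 2).

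High scores were unevenly spread over the bins. The top decile of X scores had 14 members among the 49 regions of bin 2 in replicate 1 and 11 among 52 in replicate 2. Bin 20 (19000001 to 20000000) held 9 of 49 and 12 of 47. Bin 7 (6000001 to 7000000) held 10 of 52 and 7 of 54, and in replicate 2 it did not stand out. There, bin 3 held 7 of 51, bin 19 held 6 of 32 and bin 5 held 5 of 21. In replicate 1 these bins held 5 of 53, 5 of 35 and 3 of 20. An even spread would give each bin a decile of its regions. The bins named here were singled out after their values were seen. Bin 12, among the most covered, held 3 and 4 of the top decile from 42 and 48 regions. It had 8 regions wider than 8000 bp in replicate 1, 3 in replicate 2 and 8 of 50 in the combined list, while bin 2 had 6, 5 and 7. Median scores differed between replicates by up to 0.49 in a bin, so the order of bins by score is less firm than that by coverage (rho 0.86 between replicates).

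Scores on X had a low and a high maximum. In replicate 1, 89 regions scored between 0.5 and 0.75, 57 between 1 and 1.25 and 115 between 2.5 and 2.75. In replicate 2, 116 regions scored between 0.5 and 0.75, 69 between 1 and 1.25 and 116 between 2 and 2.25. Width went with score. Regions of at most 2000 bp had a median score of 0.54 in both replicates (n = 89 and 87), those over 2000 and up to 4000 bp had 1.68 and 1.49 (n = 447 and 465), and those over 4000 and up to 6000 bp had 2.48 and 2.10 (n = 199 and 206). Above that the score hardly changed, with 2.52 and 2.14 up to 8000 bp (n = 75 and 60) and 2.57 and 2.23 beyond (n = 43 and 30).

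Domains wider than 8000 bp numbered 50 on X in the combined list, or 5.57% of its regions there, where the share over all sequences was 4.5%. They held 15.3% of the covered bases, and all 50 overlapped regions of both replicates. Their lowest score was 1.18 and their median 2.31, and 15 of them were among the 100 highest scores of X. In 28 cases each replicate also called a single region. The domain was divided in replicate 2 only in 14 cases, in replicate 1 only in 3 and in both in 5. The number of regions wider than 8000 bp was 43 in the list of replicate 1 and 30 in that of replicate 2. These were 5.04% and 3.54% of the X regions. Single autosomal arms, without their proximal 2 Mb, had 3.85% to 4.63% in replicate 1 and 2.93% to 3.85% in replicate 2. The share on X was thus above each arm in replicate 1 but within their range in replicate 2.

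The widest domain of X, 508508 to 525873 (17366 bp), was undivided in both replicates, 17023 bp wide with a score of 2.74 in replicate 1 and 17031 bp wide with a score of 2.47 in replicate 2. It had the smallest difference in width between replicates of the 10 widest. The next, X 1961840 to 1978541 (16702 bp), was likewise undivided, at 16299 bp and 16000 bp, with scores of 2.40 and 2.10. X 16673113 to 16688776 (15664 bp) was also undivided, at 15623 bp and 15437 bp, and scored 2.53 and 2.11. X 9046646 to 9060459 (13814 bp) was undivided at 13617 bp and 13118 bp and scored 2.76 and 2.25.

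Several of the widest domains lay in the same stretch. Between X 11239858 and 11616364, 4 of the 10 widest lay within 377 kb, namely 11239858 to 11254811 (14954 bp), 11461460 to 11476835 (15376 bp), 11480397 to 11495933 (15537 bp) and 11601783 to 11616364 (14582 bp). The pair in the middle was separated by 3561 bp and undivided in both replicates. Of these, 11239858 to 11254811 had the highest scores, with a maximum of 3.22 in replicate 1 and 2.79 in replicate 2, and was called as 2 regions in each. The domain 11601783 to 11616364 was a single region in replicate 1 and 3 regions in replicate 2. The whole stretch was covered to 29.9% in replicate 1 and 28.9% in replicate 2, by 17 and 20 regions, and still held a gap of 59664 bp and 59489 bp. It was singled out after its values were seen.

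**Figure D3:**
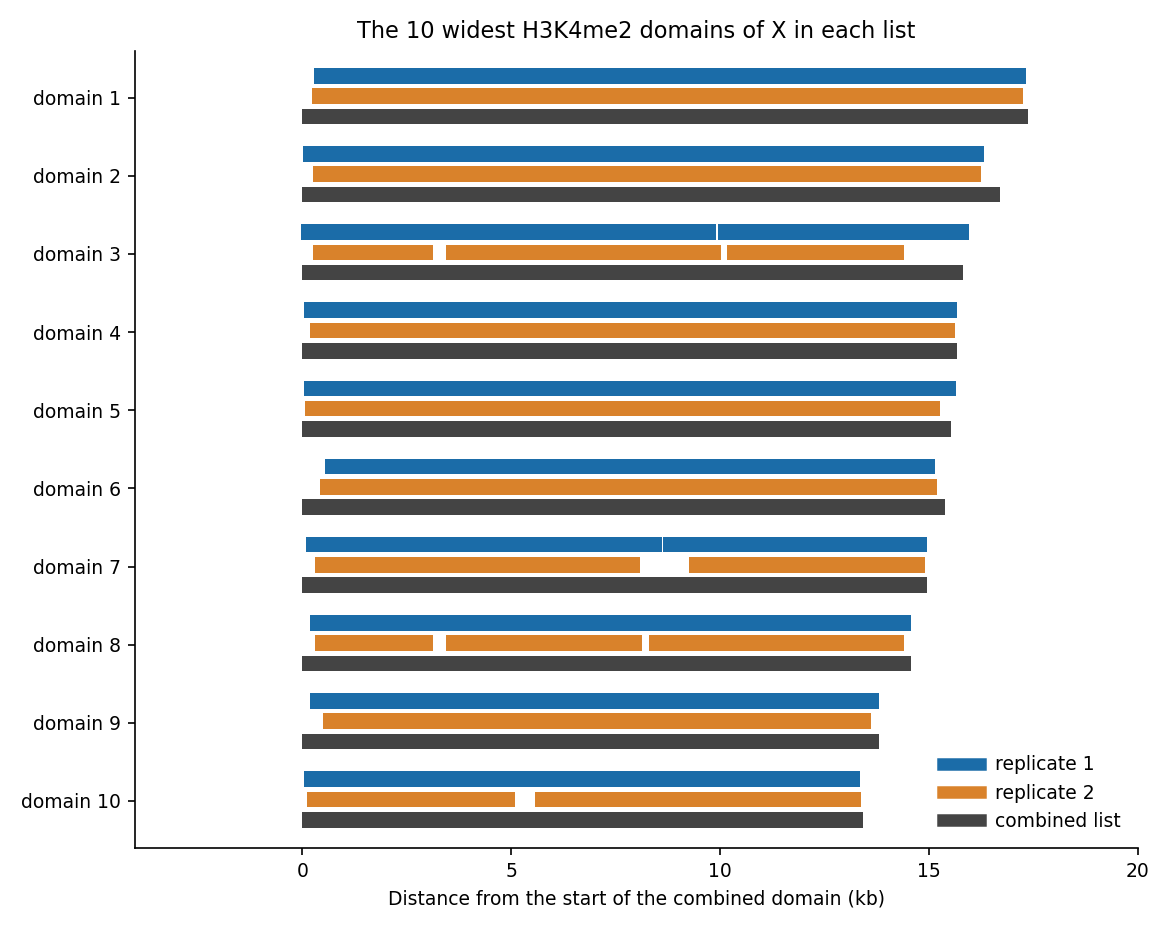
Extent of the 10 widest combined domains of X in replicate 1 (upper bar), replicate 2 (middle bar) and the combined list (lower bar), in kb from the start of the combined domain, ordered by width from the top. Domains 3, 7, 8 and 10 are divided in replicate 2; of these, domains 3 and 7 are also 2 regions in replicate 1, at gaps too short to see for domain 7.

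Of the other wide domains, X 1352547 to 1368370 (15824 bp) was divided into 2 regions in replicate 1 and 3 in replicate 2, with maxima of 3.04 and 2.80. X 17977142 to 17990568 (13427 bp) was single in replicate 1, with a score of 2.63, and 2 regions in replicate 2, with a maximum of 2.18. The summed width of the calls differed less than their number. For X 1352547 to 1368370 they came to 15967 bp and 13692 bp, for X 11601783 to 11616364 to 14383 bp and 13589 bp, and for X 17977142 to 17990568 to 13320 bp and 12761 bp.

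The highest scores belonged to regions of 3897 to 6845 bp, and some of them lay near each other. X 6180283 to 6187127 scored 3.31 in replicate 1 and 2.95 in replicate 2. Its neighbour X 6187285 to 6191807, 157 bp further on in the combined list, scored 3.32 and 2.97, and both were separate calls in each replicate. A second pair, X 14093270 to 14097389 (3.50 and 2.81) and X 14130094 to 14134119 (3.61 and 2.98), lay within a stretch of 40.9 kb in which 5 regions were called in every list. The lowest of those 5 still scored 2.15 in replicate 1 and 1.86 in replicate 2. The first of the pair borders a gap of 201 kb without a combined region, the fifth longest of X.

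At a pair of loci, singled out after their values were seen, a region among the 10 highest scores lay near 1 of the 10 widest domains. X 9041491 to 9046097, the ninth by score in the combined list, scored 3.37 in replicate 1 and 2.87 in replicate 2 and lay 548 bp before the domain 9046646 to 9060459, the ninth by width. Together they span 19.0 kb, of which 96.1% was covered in replicate 1 and 92.6% in replicate 2. X 1932843 to 1937277 (3.45 and 2.88) and the domain 1961840 to 1978541 lie within 45.7 kb that was covered to 63.5% and 60.8%. They do not adjoin, and the weakest region between them scored 0.70 in replicate 1 and 0.62 in replicate 2. Long gaps lay on the distal side of X 20261563 to 20267881, 132432 bp from its neighbour there, and of X 19371598 to 19377531 (3.63 and 2.97), 121576 bp from its own. The remaining members of the 10 were X 17753150 to 17757046 (3.46 and 3.02) and X 2501194 to 2505323 (3.29 and 2.98). In all 10, the score was higher in replicate 1, as it was in 91.9% of all matched X regions.

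Long stretches of X carried no region. Gaps above 50 kb numbered 101 in replicate 1 and 102 in replicate 2 and made up 48.8% and 49.8% of the length considered, from 11.9% and 12.0% of all gaps. This share of the length lay within the range of the single autosomal arms, 36.2% to 51.0% in replicate 1 and 35.5% to 52.8% in replicate 2. The longest in the combined list ran from X 7235600 to 7501940 (266 kb). It was followed by 12100771 to 12326103 (225 kb), 4983065 to 5201242 (218 kb), 4598454 to 4802314 (204 kb) and 13892527 to 14093269 (201 kb). Within these 5, the replicates had at most 106 bp covered, by edges of regions at their borders. Bin 5 held the whole of the fourth and the start of the third, in the megabase with the fewest regions. A gap without calls does not show that H3K4me2 is absent, since depth and the alignable share of each stretch are unknown.

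Regions close to another region scored higher than isolated ones. Those less than 1000 bp from their nearest neighbour had a median score of 2.20 in replicate 1 and 1.97 in replicate 2 (n = 209 and 194). At 1000 to 5000 bp the medians were 2.18 and 1.91 (n = 344 and 349), and at 5000 to 20000 bp 1.69 and 1.35 (n = 228 and 235). Isolated regions at 20000 bp or more had 1.30 and 1.09 (n = 72 and 70). Their median width was 2840.5 bp and 2925.5 bp, against 3292 bp and 3540 bp in the closest class. The autosomal arms had the same order, with medians of 2.10 and 1.83 in the closest class and 1.28 and 1.10 in the most isolated one, so that this order was not restricted to X. Scores of adjacent X regions were weakly alike, with a rho of 0.16 (replicate 1) and 0.18 (replicate 2), across regions of the same library.

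**Figure D4:**
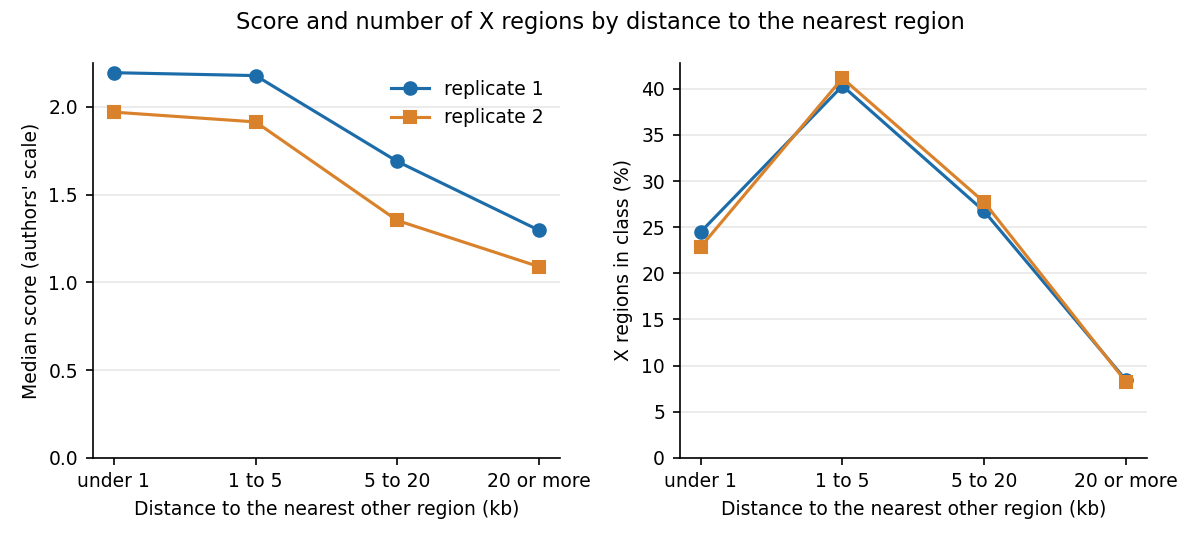
Median score (left, authors' scale) and share of X regions (right, %) by distance to the nearest other region in kb, for replicate 1 (circles) and replicate 2 (squares). Median scores are highest under 5 kb and lowest at 20 kb or more in both replicates.

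Chains of regions less than 1000 bp apart were short. They took in 209 regions in 97 chains in replicate 1 and 194 regions in 91 chains in replicate 2, and 83 and 80 of these were pairs. The longest in the combined list had 4 members. The first, X 6169075 to 6191807, spans 22733 bp with 95.7% covered, and includes the pair at 6180283 to 6191807 described above. It was 3 regions in replicate 1 and 4 in replicate 2. The second, X 17719406 to 17740905, spans 21500 bp and was 4 and 3 regions, covering 80.1% in replicate 1 and 65.8% in replicate 2. The third, X 17631492 to 17641119, spans 9628 bp and was less well matched, with 3 regions covering 71.9% in replicate 1 and 1 region covering 43.3% in replicate 2.

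X was set against 2L, 2R, 3L and 3R, each without its proximal 2 Mb. With 2 replicates, the exact permutation test of a difference between X and the arms within replicates (two-sided) gave p = 0.5 for median score and for median width, the smallest it can give, so it cannot reach 0.05. In covered share X, at 16.5% in replicate 1 and 15.7% in replicate 2, lay below 2R (18.7% and 18.1%) and above the other arms, of which the nearest had 15.5% and 15.1%. Its regions per Mb, 41.8 and 41.5, lay within the range of the arms, 38.3 to 49.7 and 38.1 to 50.3. The densest bin of X was also not extreme, since 5 of 87 autosomal bins of 1 Mb in replicate 1 and 6 of 87 in replicate 2 were more covered. Likewise, 4 and 5 of the 87 were less covered than the sparsest bin of X. The SD of covered share over bins was 4.76 percentage points on X and 4.73 on the arms in replicate 1. In replicate 2 it was 4.50 and 4.66.

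Median width and score, in contrast, lay above those of each of the 4 arms. In replicate 1 the median width was 3258 bp on X and 3138 bp on the arms together (single arms 3050 to 3180 bp). In replicate 2 it was 3240 bp on X and 3057 bp on the arms (2968 to 3115 bp). The difference was 151.5 bp ± 44.5 (SD, n = 2). At the 10th percentile of width it was -10.15 bp ± 30.8, within the spread of the replicates, and at the 75th it was 392 bp ± 103. The widest single regions were on 2L and 2R, not on X. The median score was 1.97 on X and 1.86 on the arms in replicate 1, and 1.72 and 1.60 in replicate 2, a difference of 0.11 ± 0.0083 (SD, n = 2). It was 0.046 when regions were compared within 5 classes of width, and 0.073 in the combined list.

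In units of the authors' scale, the difference in score grew toward the top of the distribution. At the 10th percentile X was above the arms by 0.089 ± 0.0049, at the 75th by 0.14 ± 0.017, at the 90th by 0.16 ± 0.030 and at the 99th by 0.26 ± 0.026 (SD, n = 2 each). At the 99th percentile X had 3.32 in replicate 1 and 2.93 in replicate 2, where the highest single arm had 3.11 and 2.71. The arms together had 3.08 and 2.66 there. At the 10th percentile X had 0.65 and 0.62, and the arms together 0.57 and 0.53. In proportion to the score, the difference was thus larger at the 10th percentile than at the 99th. The comparison within classes of width was made for the median only, not for these percentiles or the highest scores. The X regions considered here supplied 39 of the 100 highest scores of all sequences in replicate 1 and 41 in replicate 2, from 16.9% and 16.7% of all regions. Of these, 23 and 24 lay in the distal 10 Mb, which held 48.4% and 49.1% of the X regions. In both replicates the difference exceeded the range among the 4 arms at the 10th, 50th, 75th, 90th and 99th percentiles, and at the 25th it did not. In the combined list it did so at each of the 6 but the 50th.

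**Figure D5:**
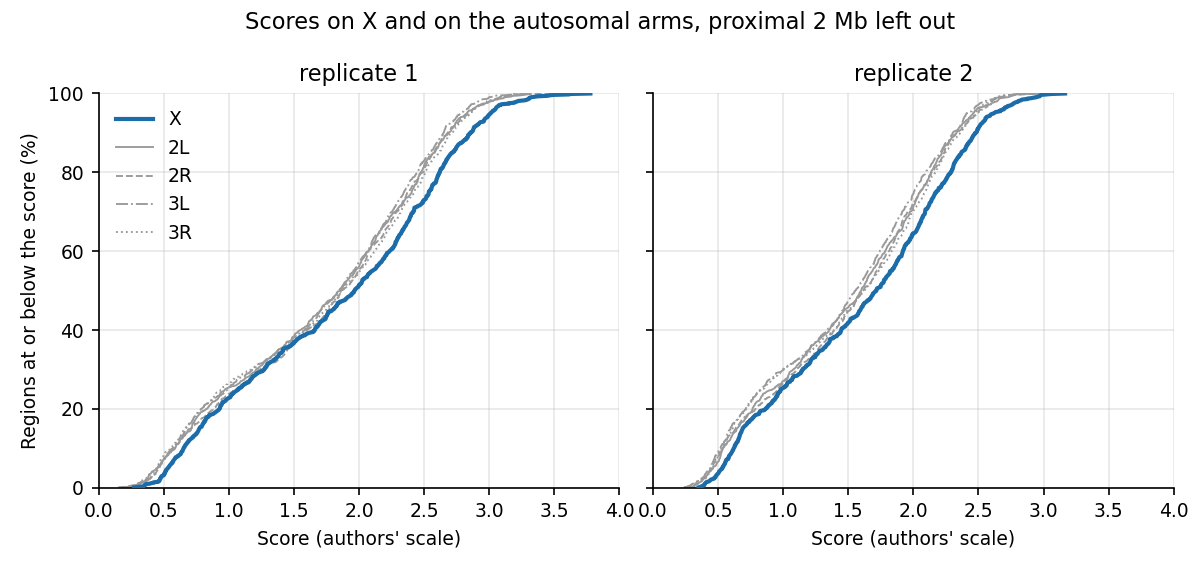
Cumulative share of regions (%) at or below each score (authors' scale) for X (thick line) and for 2L, 2R, 3L and 3R (thin lines) in replicate 1 (left) and replicate 2 (right), without the proximal 2 Mb. The X curve lies to the right of the 4 arms over the upper part of the range, up to 3.78 in replicate 1.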

How the data were processed

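ChIP-seq of H3K4me2 was analysed from 3 lists of regions that the authors deposited in GFF version 3, 1 for each of the 2 ChIP replicates and 1 combined list for the replicate set. Per the file headers, coordinates are those of FlyBase release 5. The authors' score of each region has no stated scale. How reads were aligned, how regions were called and at which threshold, the depth and how replicates were combined: none of this is stated in the labels or headers used here. The gene table at hand is on release 6, and no coordinates were converted.

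Regions were intersected with scipy 1.17.1, pandas 2.3.3 and numpy 2.4.6 under Python 3.11.15, and plotted with matplotlib 3.10.9. A region was shared where at least 1 bp was in common. Bins of 1 Mb started at position 1, a region was assigned to a bin by its midpoint, and the last 0.42 Mb formed no bin. Covered share is bases within regions over all bases. The arithmetic was tested on simulated data. Values are given with the SD of the replicates, and an exact permutation test over 2 replicate differences cannot reach a p of 0.05. That test was added after the data were seen. The 10 widest and 10 highest-scoring combined regions, the 5 longest gaps, the 3 most and least covered bins, the 3 longest chains and the 5 strongest unshared or discordant regions are named. The members and these lists were chosen with earlier results of these data known. Alternatives were other overlap, proximal, score and bin limits, merging, the combined list and each replicate alone.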

Additional observations from a re-analysis of the deposited data

How the results depend on the processing

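No paired analysis was possible because the input libraries have no list, and no result is a comparison between groups of libraries. Of 56 alternatives over 9 results, 35 stayed within the spread of the replicates or the counting interval, and 21 moved beyond it. For results averaged over the replicates, each replicate alone always falls within their spread, so those alternatives could only stay. The rho of scores had no spread, so any change in it counted as moved. The differences of X from the arms in score and width kept their sign in all 14 of their alternatives. The spread of the replicates is itself small, which makes this a narrow criterion. The share of combined X regions that overlapped replicate 2 was 90.4% and the share that overlapped replicate 1 was 92.9%, each without regard to the other replicate, an alternative added after the data were seen. With the upper 50% of scores, covered share was 10.8%, the median gap 10333 bp and the range over bins 13.1 percentage points. With regions less than 500 bp apart merged, median width was 3394.5 bp, the median gap 8370.5 bp and there were 38.5 regions per Mb. With the combined list, covered share was 17.6%, median width 3349 bp, the median gap 6579 bp, regions per Mb 44.0, the score difference of X from the arms 0.073 and the width difference 203 bp. With 1 Mb left out at the proximal end, median width was 3236 bp and regions per Mb 40.6. With 3 Mb left out, median width was 3226.5 bp and the score difference 0.089. Within 5 classes of width the score difference was 0.046. Bins of 2 Mb had a range of 6.32 percentage points in covered share and bins shifted by 0.5 Mb one of 18.2, so the contrast between bins depends on their size and placement. With 50% reciprocal overlap the rho of scores was 0.97. The cause was not tested in any of these. Each replicate alone gave covered shares of 15.7% to 16.5%, median widths of 3240 to 3258 bp, median gaps of 6989.5 to 7234 bp, 41.5 to 41.8 regions per Mb, a range over bins of 14.7 to 15.9 percentage points, score differences of 0.10 to 0.12 and width differences of 120 to 183 bp. Depth is unknown and limits how far weak or narrow regions and empty stretches can be read.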
